A study of Mus musculus with 22 samples.

Results

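Mature gamma-delta thymocytes of 2 subsets were compared directly: Vg1.1+ CD24-CD73+ cells with Vg2+ CD24-CD73+ cells, across all genes of an expression array. The comparison rests on 8 arrays, 4 per subset, of 22 in the series. All cells came from the thymus of female C57BL/6 mice aged 8 weeks and were sorted on Vgamma1.1 or Vgamma2 surface expression together with CD24 and CD73. The other 14 arrays hold the same subsets at CD24+CD73- (4 Vg1.1+ and 3 Vg2+ arrays) and CD24+CD73+ (3 Vg1.1+ and 4 Vg2+ arrays), and serve here as the earlier stages. No allele or treatment is given for any group, and total RNA of each sample was hybridised to 1 array. Replicates are labelled biological, but nothing ties each to its own animal, and the p-values therefore reflect only how much these samples vary.

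CD24 is lost as gamma-delta thymocytes mature, and CD73 marks commitment to the lineage. Gamma-delta T cells acquire much of their cytokine programme in the thymus. Cells with the Vgamma2 segment are a known source of interleukin 17, a programme that depends on the interleukin 23 and interleukin 1 receptors, while part of the Vgamma1.1 cells make interleukin 4 together with interferon gamma, as innate-like natural killer T cells do. The comparison asks how far the subsets differ once they are mature.

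Values below are log2 expression values, and a difference is the Vg1.1+ mean minus the Vg2+ mean, so that a positive value means higher in Vg1.1+ cells. The test was limma's moderated test with Benjamini-Hochberg adjustment over 8545 tested genes and a threshold of 0.05. Its spread per gene was shared by all 6 groups on the 22 arrays, so SEs and p-values do not rest on the 8 mature arrays alone. In sorted cells measured in bulk, fewer cells of a type and less RNA per cell cannot be told apart. One array stood apart. Vg1.1+ CD24-CD73+ replicate 1 had an SD of 1.61 over its log2 values, against 1.96 to 2.03 on the other Vg1.1+ arrays of this stage and 1.81 to 2.03 on the Vg2+ arrays. Its highest correlation with an array of its own group was 0.956, against 0.986 to 0.991 for the other 3 Vg1.1+ arrays. Results are therefore also given without it.

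The mature subsets differed in 984 of 8545 genes (11.5%), with 495 higher (5.79%) and 489 lower (5.72%) in Vg1.1+ cells. Vg1.1+ cells had far more of Fabp7, of the type 2 cytokines Il4 and Il13, of Cd40lg and of the interleukin 25 receptor chain Il17rb. They had far less of Il23r, Ccr6, Il1r1, Il17f and the paired membrane protein genes Tmem176a and Tmem176b. Differences of more than 2-fold were found for 81 of the higher and 142 of the lower genes, and of more than 8-fold for 4 and 9. The 4 Vg1.1+ and 4 Vg2+ arrays did not overlap in 364 of the 495 higher genes (73.5%) and in 393 of the 489 lower genes (80.4%), against 489 higher (5.72%) and 486 lower (5.69%) of all tested genes, 975 together (11.4%). The called genes were picked on differences between these same arrays, so their larger share was built in and is no separate support. The median difference of all tested genes was 0.01. When only the 8 arrays were fitted, 466 genes were called, 213 higher and 253 lower. In the fit over all groups without Vg1.1+ replicate 1 the counts were 712 higher and 474 lower. That array lay nearest to the Vg2+ values among the 4 Vg1.1+ arrays in 275 of the 495 higher genes (55.6%) and in 135 of the 489 lower genes (27.6%).

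**Figure D1:**
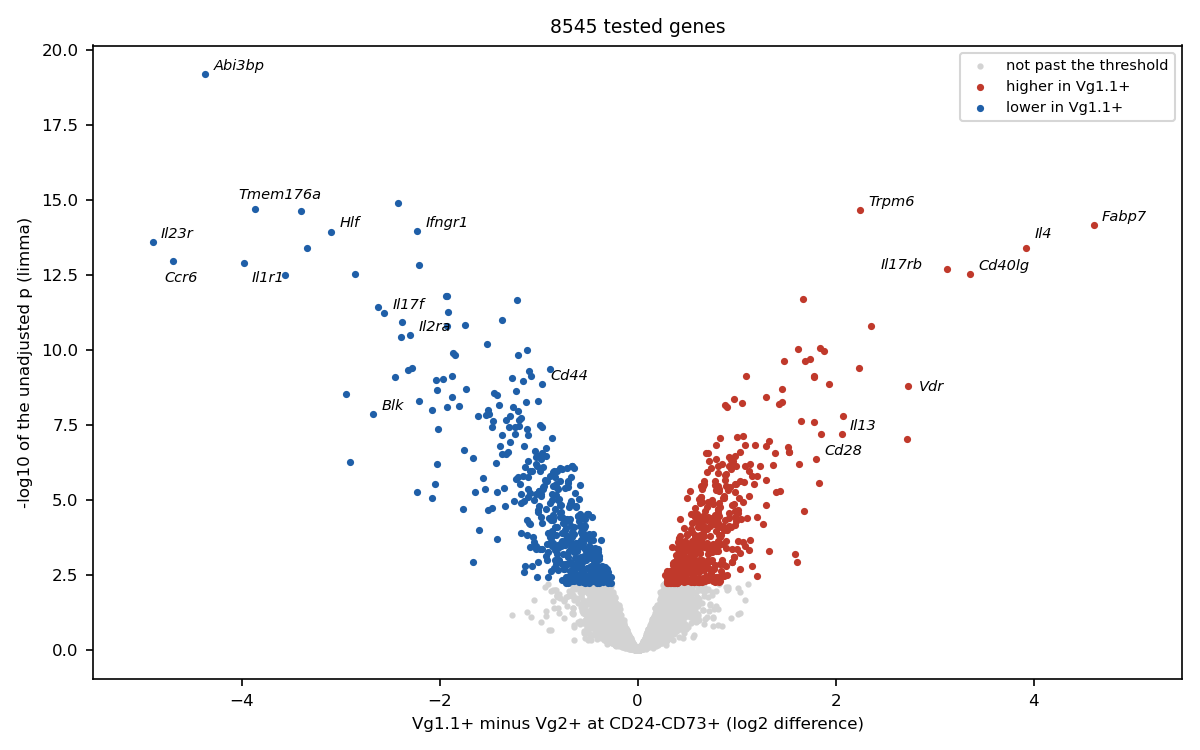
Log2 difference (Vg1.1+ minus Vg2+) at CD24-CD73+ on the horizontal axis against -log10 of the unadjusted limma p on the vertical axis, 1 point per tested gene. Genes past the adjusted threshold are coloured by direction, and the genes farthest out are Fabp7 (4.61) on the right and Il23r (-4.90) on the left.

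Fabp7, a brain-type fatty acid binding protein, had the largest positive difference. Its log2 values were 8.11, 7.43, 6.83 and 7.13 in the 4 Vg1.1+ arrays, against 2.52, 2.76, 3.08 and 2.71 in the Vg2+ arrays. Every Vg1.1+ array was far above every Vg2+ array, and the values of Vg2+ cells lay below the median of the whole table (4.55). The difference was 4.61 ± 0.23 (SE from the fit over all 22 arrays, n = 4 each, adjusted p = 9.61e-12). No exact fold is given for genes that lay below this median in 1 subset, since the files do not show whether values that low stand above background. Il4, the defining type 2 cytokine, had 8.47, 9.06, 8.10 and 8.30 in Vg1.1+ arrays and 4.93, 4.46, 4.63 and 4.21 in Vg2+ arrays. The groups did not overlap, with a difference of 3.92 ± 0.22 (adjusted p = 3.08e-11). Cd40lg, the ligand through which T cells engage CD40 on B cells and dendritic cells, read 8.77, 9.03, 9.12 and 8.82 in Vg1.1+ arrays and 4.95, 5.35, 5.98 and 6.02 in Vg2+ arrays. The difference was 3.36 ± 0.20, and the lowest Vg1.1+ array stood above the highest Vg2+ array. Il17rb, a chain of the interleukin 25 receptor, read 6.96, 8.00, 7.93 and 7.97 in Vg1.1+ arrays, against 4.88, 4.18, 4.83 and 4.46 in Vg2+ arrays. Replicate 1 was the lowest Vg1.1+ array, and the difference was 3.13 ± 0.19 with it and 3.38 without it.

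Further genes among the 25 of largest positive difference had varied roles. Vdr, the vitamin D receptor, read 5.66, 6.86, 7.19 and 7.46 in Vg1.1+ arrays and 4.41, 3.83, 4.01 and 3.99 in Vg2+ arrays, a difference of 2.74 ± 0.27. Trpm6, a magnesium channel with kinase activity, differed by 2.25 ± 0.11 with the smallest spread of the leading genes, at 5.77 ± 0.18 (SD) in Vg1.1+ cells and 3.52 ± 0.10 in Vg2+ cells. Izumo1r, the folate receptor family member also found on regulatory and anergic T cells, averaged 7.92 ± 0.54 in Vg1.1+ cells and 5.68 ± 0.24 in Vg2+ cells. H19, an imprinted noncoding RNA, varied most among the Vg1.1+ arrays, at 5.18 on replicate 1 and 6.86 to 7.63 on the others, against 3.72 to 4.33 in Vg2+ arrays. Its difference was 2.72 with replicate 1 and 3.24 without it. Flrt2, Zfp536, the neurotrophin receptor Ntrk3, the cytokine Il21, the sialyltransferase St8sia6, the phosphoinositide phosphatase Inpp4b and the semaphorin co-receptor Nrp1 were higher by 2.36, 2.07, 1.94, 1.88, 1.83, 1.78 and 1.67.

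Il23r had the largest negative difference. It read 3.33, 4.83, 4.76 and 4.54 in Vg1.1+ arrays, against 8.91, 9.35, 9.23 and 9.58 in Vg2+ arrays, and Vg1.1+ replicate 1 was the lowest of the 8. The difference was -4.90 ± 0.26 (adjusted p = 2.29e-11), and -4.55 without replicate 1. The Vg1.1+ mean lay below the table median, so that no exact fold is given. Ccr6, the receptor for the chemokine CCL20, read 4.14, 3.07, 2.99 and 3.09 in Vg1.1+ arrays and 7.41, 7.81, 8.20 and 8.66 in Vg2+ arrays. Its difference was -4.70 ± 0.27, with the Vg1.1+ values below the table median on every array. Abi3bp, which encodes a matrix-binding protein, had the smallest adjusted p of all genes (5.33e-16), at 3.53 ± 0.22 in Vg1.1+ cells and 7.90 ± 0.18 in Vg2+ cells (SD, n = 4 each). Il1r1, the signalling interleukin 1 receptor, read 5.68, 5.26, 4.64 and 4.41 in Vg1.1+ arrays and 8.66, 9.01, 8.90 and 9.35 in Vg2+ arrays, a difference of -3.98 ± 0.23.

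Tmem176a averaged 5.76 ± 0.38 in Vg1.1+ cells and 9.62 ± 0.36 in Vg2+ cells, and its neighbour Tmem176b averaged 5.94 ± 0.09 in Vg1.1+ cells and 9.28 ± 0.57 in Vg2+ cells. Pxdc1, the leukotriene receptor Cysltr1, the PAR bZIP transcription factor Hlf and Plekhf1 were lower in Vg1.1+ cells by 3.56, 3.40, 3.10 and 2.95 in size. Blk, a Src-family kinase, read 6.09, 5.59, 6.24 and 5.66 in Vg1.1+ arrays and 7.30, 8.74, 8.95 and 9.27 in Vg2+ arrays, and Vg2+ replicate 1 was the lowest of its group. The growth factor receptor Igf1r differed by -2.38 ± 0.18, the palmitoyltransferase Zdhhc2 by -2.85 ± 0.17, the carboxypeptidase Cpd by -2.42 ± 0.11 and the semaphorin receptor Plxnd1 by -2.28 ± 0.20. Anxa1, a phospholipid-binding annexin, differed by -2.23 ± 0.37 with a wide spread in Vg2+ cells, at 4.20 on replicate 1 and 6.16 to 6.47 on the others, against 2.96 to 4.09 in Vg1.1+ cells. For the 10 leading genes in each direction the call held when any 1 of the 22 arrays was left out. The highest adjusted p then was 6.06e-05, for H19. These genes were picked for their difference on the mature arrays, so this was largely fixed in advance. Leaving out an array of another stage cannot change the difference itself.

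**Figure D2:**
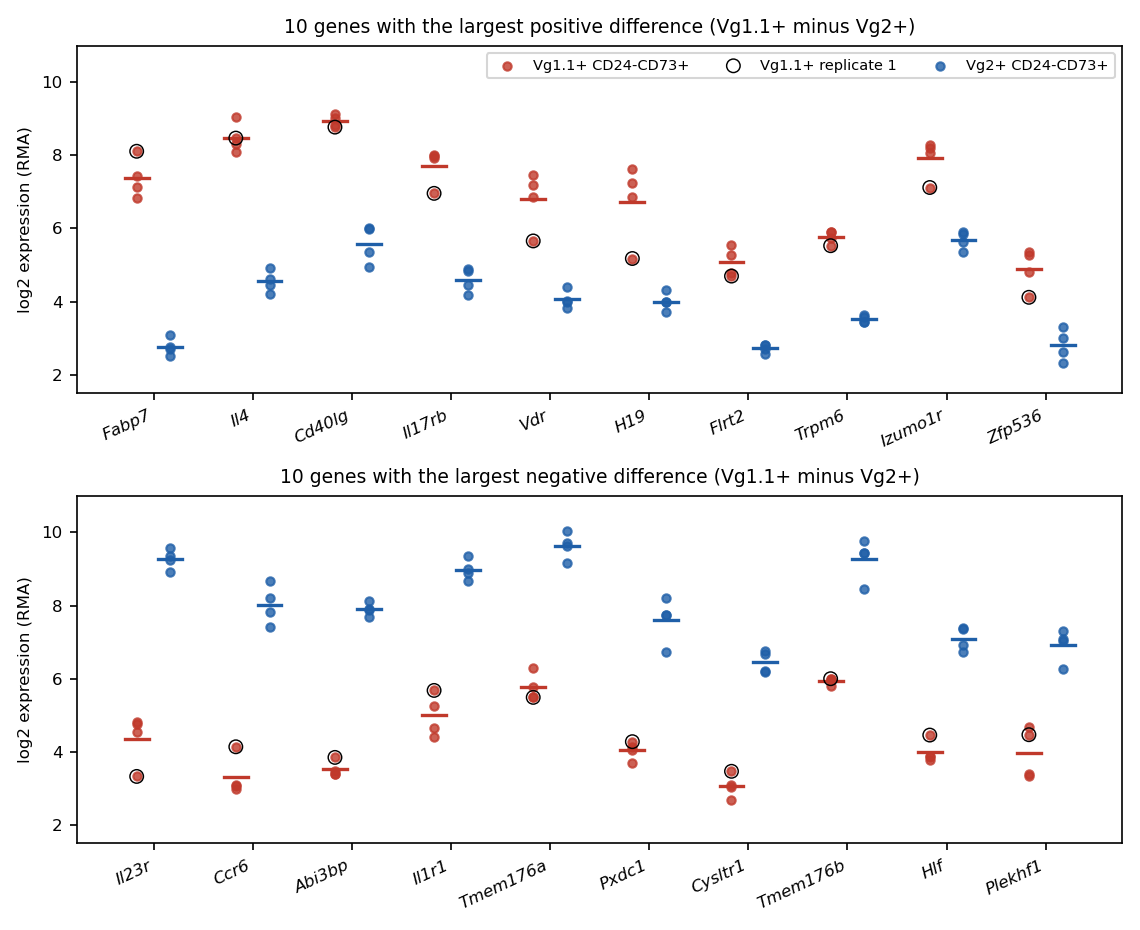
Log2 expression on each CD24-CD73+ array for the 10 genes with the largest positive (upper panel) and the 10 with the largest negative difference (lower panel), with Vg1.1+ arrays left and Vg2+ arrays right for each gene. Short lines are group means (n = 4 each), black rings mark Vg1.1+ replicate 1, and the groups do not overlap in any of the 20 genes. The genes were picked for their difference on these arrays, so the lack of overlap was largely built in.

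The promoters of 4 of these genes are shown because the genes carry the largest contrasts and a window of 3 of them holds a motif read by nuclear receptors. Each is the RefSeq window of 250 bases before to 50 bases after a start site, on GRCm38.p6 and 5′ to 3′ on the strand of the gene. Capitals mark AGGTCA or its reverse complement, a half-site bound by nuclear receptors of the ROR and vitamin D receptor families, and in Ccr6 also the reverse complement of TTANGTAA, the site of PAR bZIP factors and NFIL3. Fabp7 lies at chr10:57784673-57784972 (+), Il4 at chr11:53618616-53618915 (-), Il23r at chr6:67491806-67492105 (-) and Ccr6 at chr17:8235793-8236092 (+). Il4 and Ccr6 have 2 windows each in the table, of which 1 is shown, and the Ccr6 window not shown, at chr17:8242276-8242575 (+), has 0 matches to either motif.
Fabp7: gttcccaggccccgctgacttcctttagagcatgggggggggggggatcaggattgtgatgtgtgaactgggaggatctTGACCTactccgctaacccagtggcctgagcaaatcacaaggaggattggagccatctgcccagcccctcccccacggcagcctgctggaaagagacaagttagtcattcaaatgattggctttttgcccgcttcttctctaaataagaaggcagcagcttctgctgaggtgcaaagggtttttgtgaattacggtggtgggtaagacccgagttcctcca
Il4: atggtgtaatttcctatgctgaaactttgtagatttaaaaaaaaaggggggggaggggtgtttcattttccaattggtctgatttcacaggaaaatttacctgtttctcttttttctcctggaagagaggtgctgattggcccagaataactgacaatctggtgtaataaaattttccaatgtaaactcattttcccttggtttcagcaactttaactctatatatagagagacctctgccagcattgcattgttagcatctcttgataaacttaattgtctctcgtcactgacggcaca
Il23r: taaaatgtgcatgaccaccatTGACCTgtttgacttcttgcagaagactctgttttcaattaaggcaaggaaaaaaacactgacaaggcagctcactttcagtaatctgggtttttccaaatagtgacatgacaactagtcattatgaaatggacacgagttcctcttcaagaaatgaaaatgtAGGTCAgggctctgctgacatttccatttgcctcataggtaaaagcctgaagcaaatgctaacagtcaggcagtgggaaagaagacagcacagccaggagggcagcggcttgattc
Ccr6: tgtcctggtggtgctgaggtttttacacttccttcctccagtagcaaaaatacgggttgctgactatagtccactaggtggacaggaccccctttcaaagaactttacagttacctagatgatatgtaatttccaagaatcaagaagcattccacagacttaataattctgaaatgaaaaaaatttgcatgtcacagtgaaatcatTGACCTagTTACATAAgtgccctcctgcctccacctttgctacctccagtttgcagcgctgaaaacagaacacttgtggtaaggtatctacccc

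The Il23r window held 2 matches to AGGTCA, the Fabp7 window and the Ccr6 window shown held 1 each, and both Il4 windows held 0. On either strand, AGGTCA was found in 10.5% of 523 promoters of the higher genes, in 16.1% of 509 promoters of the lower genes and in 12.4% of 8986 promoters of all tested genes. It was found in 16.3% of all 32851 promoters of the table. ACAAAG, a site of TCF and SOX factors, was found in 19.5% of the promoters of higher genes, 12.4% of those of lower genes, 13.7% of those of tested genes and 18.7% of the whole table. TTANGTAA was found in 1.34% of the promoters of higher genes, 0.786% of those of lower genes and 1.45% of those of tested genes. These shares describe letters in a short window and were not tested.

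The type 2 and innate-like effector list named 23 genes, of which 18 were measured and 13 passed the filter on low values. Of the 13, 8 were higher and 3 lower in Vg1.1+ cells, with a median difference of 1.88, against 0.01 over all tested genes. Fabp7, Vdr and Il21 passed the filter only through the mature Vg1.1+ arrays and Nfil3 and Ptgdr2 only through the mature Vg2+ arrays. The filter itself thus favoured a difference in these 5. Of the other 8 tested members 5 were higher and 1 lower, and over all 18 measured members the median difference was 0.46. The higher genes were Fabp7, Il4, Cd40lg, Il17rb, Vdr, Il13, Il21 and Icos. Il13 read 5.74, 6.73, 6.79 and 7.40 in Vg1.1+ arrays and 5.03, 4.40, 4.98 and 4.00 in Vg2+ arrays, and the groups did not overlap (2.06 ± 0.25). Il21, a cytokine that acts on B cells, averaged 5.12 ± 0.28 in Vg1.1+ cells and 3.24 ± 0.17 in Vg2+ cells. The lower genes were Nfil3, a bZIP repressor (-2.02 ± 0.20), Ptgdr2, the prostaglandin D2 receptor of type 2 cells (-0.98 ± 0.19), and the interleukin 4 receptor chain Il4ra (-0.75 ± 0.17). Gata3, the regulator of type 2 differentiation, read 7.29, 8.02, 8.45 and 8.27 in Vg1.1+ arrays, against 7.73, 7.41, 7.86 and 7.80 in Vg2+ arrays. It overlapped and did not pass (0.30 ± 0.20, adjusted p = 0.438), but passed without Vg1.1+ replicate 1 (0.54, adjusted p = 0.0375). Zbtb7b, a factor of helper and innate-like T cells, averaged 5.53 ± 0.16 in Vg1.1+ cells and 5.71 ± 0.08 in Vg2+ cells (adjusted p = 0.379). Il5, another type 2 cytokine, was below the filter at 2.55 ± 0.14 in Vg1.1+ cells and 2.81 ± 0.25 in Vg2+ cells. Zbtb16, Maf and Tcf7 were not analysed here.

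The IL-17 list named 21 genes, and the 16 measured all passed the filter. Of these, 11 were lower in Vg1.1+ cells, 2 higher and 3 neither, with a median difference of -0.86. Il23r, Ccr6, Il17f and Il17a passed the filter only through the mature Vg2+ arrays, so the filter itself favoured a difference in these 4. Of the other 12 members 7 were lower and 2 higher, with a median difference of -0.53. Beside Il23r, Ccr6, Il1r1 and Blk, the cytokines themselves were lower. Il17f read 4.26, 3.98, 3.46 and 3.46 in Vg1.1+ arrays and 6.04, 6.59, 6.38 and 6.40 in Vg2+ arrays (-2.56 ± 0.18). Il17a read 4.46, 3.77, 3.17 and 3.83 in Vg1.1+ arrays and 4.65, 5.47, 4.71 and 4.61 in Vg2+ arrays, close together but without overlap (-1.05 ± 0.23, adjusted p = 0.00314). The interleukin 17 receptor chain Il17re differed by -2.02 ± 0.29 and Cd163l1, a scavenger receptor of gamma-delta cells, by -1.37 ± 0.17. Sox13, an HMG-box factor that Vgamma2 cells need for this programme, averaged 5.71 ± 0.21 in Vg1.1+ cells and 6.37 ± 0.25 in Vg2+ cells (-0.66 ± 0.16, adjusted p = 0.00589). Rora, a nuclear receptor of IL-17 cells, differed by -0.58 ± 0.14 (adjusted p = 0.00543). Batf, an AP-1 family factor, differed by -0.47 ± 0.15 (adjusted p = 0.0392), and lost its call when any 1 of 5 arrays was left out (Vg1.1+ replicates 2 and 4, and Vg2+ replicates 2, 3 and 4, adjusted p up to 0.136).

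The 2 list members higher in Vg1.1+ cells were the factors Irf4 (0.81 ± 0.12) and Etv5 (0.66 ± 0.20). Irf4, which also serves type 2 and follicular helper cells, read 5.29, 5.60, 5.61 and 5.45 in Vg1.1+ arrays and 4.97, 4.41, 4.74 and 4.57 in Vg2+ arrays. Etv5, an ETS factor, overlapped between the groups, and its call ended without any 1 of Vg1.1+ replicates 2, 3 and 4 and Vg2+ replicates 1, 2 and 4 (adjusted p up to 0.112). Sox4, the HMG-box factor that acts beside Sox13, did not pass (0.35 ± 0.13, adjusted p = 0.0869), but passed without Vg1.1+ replicate 1 (0.49, adjusted p = 0.00299). Without that array, 3 members of the IL-17 list were higher and 11 lower, and 9 members of the type 2 list were higher and 3 lower.

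Of 24 tested of 33 listed receptors for other cytokines, 1 was higher (Il17rb), 9 were lower and 14 passed in neither direction in Vg1.1+ cells, with a median difference of -0.32. The share called was 41.7%, against 11.5% of all tested genes. Il23r passed the filter only through the mature Vg2+ arrays, and of the other 23 members 1 was higher and 8 lower. Il2ra, the high-affinity interleukin 2 receptor chain, read 5.43, 5.56, 5.15 and 5.13 in Vg1.1+ arrays and 7.39, 7.17, 7.75 and 8.17 in Vg2+ arrays (-2.30 ± 0.18). Both chains of the interferon gamma receptor were lower. Ifngr1 averaged 7.37 ± 0.25 in Vg1.1+ cells and 9.60 ± 0.05 in Vg2+ cells, and Ifngr2 averaged 6.59 ± 0.42 in Vg1.1+ cells and 7.58 ± 0.23 in Vg2+ cells. The interleukin 17 receptor chains Il17rc and Il17ra differed by -1.31 ± 0.17 and -0.91 ± 0.22. Il7r, the interleukin 7 receptor chain, was high in both subsets, at 10.18 ± 0.35 in Vg1.1+ cells and 11.04 ± 0.22 in Vg2+ cells (-0.86 ± 0.16).

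In the interleukin 1 and interleukin 18 receptor family none of the 8 tested members was higher and 6 were lower in Vg1.1+ cells (75%, against 11.5% of all tested genes called), with a median difference of -0.71. Il18r1 averaged 9.03 ± 0.21 in Vg1.1+ cells and 9.80 ± 0.22 in Vg2+ cells (-0.78 ± 0.14). Its partner chain Il18rap, the adaptor Myd88, the kinase Irak2 and the negative regulator Irak3 differed by -0.84, -0.64, -0.51 and -0.91. The number called fell to 3 without Vg2+ replicate 3 and to 2 without Vg2+ replicate 4. The call of Myd88 also ended without Vg1.1+ replicate 2 or 4 or Vg2+ replicate 2 (adjusted p up to 0.13), and that of Irak2 without Vg1.1+ replicate 3 or 4 (adjusted p up to 0.0999 over all arrays left out). Of 24 tested SOCS, DUSP, PIM and RGS genes 4 were higher and 7 lower (45.8%, against 11.5% of all tested genes called). Socs2 and Socs3 passed the filter only through the mature Vg2+ arrays, and of the other 22 members 4 were higher and 5 lower. The lower genes included Socs2 (-2.90 ± 0.41), Cish (-1.0 ± 0.18) and Pim1 (-1.02 ± 0.24), known targets of cytokine signals through STAT factors. Rgs1, a brake on chemokine receptors, averaged 7.06 ± 0.66 in Vg1.1+ cells and 8.83 ± 0.48 in Vg2+ cells.

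Receptors that guide migration differed in both directions. Of 19 tested chemotactic receptors 3 were higher and 7 lower in Vg1.1+ cells (52.6%, against 11.5% of all tested genes called). Ccr6 and Cysltr1 passed the filter only through the mature Vg2+ arrays, and of the other 17 members 3 were higher and 5 lower. Ccr2, a receptor of inflammatory chemokines, read 7.65, 7.55, 7.54 and 7.38 in Vg1.1+ arrays and 8.93, 9.21, 9.46 and 9.51 in Vg2+ arrays (-1.75 ± 0.13). Gpr183, which senses oxysterols, differed by -1.84 ± 0.16. Cxcr6 read 7.22 on Vg1.1+ replicate 1 and 8.82 to 9.13 on the other Vg1.1+ arrays, against 9.35 to 10.34 on Vg2+ arrays. It differed by -1.42 ± 0.31 with that array and -0.98 without it. The higher receptors were Ccr10 (1.27 ± 0.25), the prostaglandin E2 receptor Ptger4 (1.04 ± 0.16) and Cxcr3 (0.77 ± 0.23). Cxcr3, a receptor of interferon-induced chemokines, lost its call on removal of any 1 of 6 arrays (Vg1.1+ replicates 2, 3 and 4, and Vg2+ replicates 1, 3 and 4, adjusted p up to 0.105). Of 19 tested adhesion molecules, 1 was higher (Nrp1) and 8 lower (47.4% called). Nrp1 passed the filter only through the mature Vg1.1+ arrays and Sdc1 only through the mature Vg2+ arrays. Of the other 17 members 0 were higher and 7 lower. Cd44, the hyaluronan receptor of activated and IL-17 T cells, read 6.12, 6.34, 6.26 and 6.27 in Vg1.1+ arrays and 7.01, 7.29, 7.29 and 7.27 in Vg2+ arrays (-0.97 ± 0.09, adjusted p = 1.92e-07). The gut-homing integrin chains Itgae and Itgb7 differed by -0.80 ± 0.14 and -1.05 ± 0.24, and Cd226 by -0.80 ± 0.13.

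Of 19 tested of 27 listed costimulatory and inhibitory receptors, 9 were higher, 2 lower and 8 neither in Vg1.1+ cells, with a median difference of 0.61. The share called was 57.9%, against 11.5% of all tested genes. Without Vg1.1+ replicate 1 there were 13 higher and 1 lower. Cd28, the main costimulatory receptor of T cells, read 9.09, 10.18, 10.47 and 10.44 in Vg1.1+ arrays and 8.48, 7.70, 8.51 and 8.28 in Vg2+ arrays. All Vg1.1+ arrays were higher, and the difference was 1.80 ± 0.25 with replicate 1 and 2.12 without it. The homophilic receptor Slamf6, Cd200, the inhibitory receptor Btla, the inhibitory receptor Pdcd1 and the scavenger-type receptor Cd6 were higher by 1.46, 1.30, 1.30, 1.06 and 1.04. Cd5, a negative regulator whose level follows the strength of T-cell receptor signals, read 7.27, 8.21, 8.16 and 8.19 in Vg1.1+ arrays and 7.20, 6.93, 7.36 and 7.15 in Vg2+ arrays. Replicate 1 overlapped the Vg2+ arrays and the other 3 did not (0.80 ± 0.16). Icos read 9.98, 10.84, 10.57 and 10.74 in Vg1.1+ arrays and 9.76, 10.04, 9.95 and 9.94 in Vg2+ arrays (0.61 ± 0.19, adjusted p = 0.0461). Its call held without Vg1.1+ replicate 1 (0.79, adjusted p = 0.00464) and ended when any other array of the 8 was left out (adjusted p up to 0.144). The lower members were Slamf1 (-0.70 ± 0.14) and Cd48 (-0.48 ± 0.13). Cd48 was not called without Vg1.1+ replicate 1 (adjusted p = 0.0509), Vg1.1+ replicate 3 or Vg2+ replicate 1. Sh2d1a, the adaptor of SLAM receptors, was higher by 0.81 ± 0.15.

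T-cell receptor signalling genes had 0 higher and 3 lower of 28 tested (10.7%, near the 11.5% of all tested genes called), with Rasgrp1, an activator of Ras, at -1.22 ± 0.19 and the adaptor Sla at -1.01 ± 0.19. Without Vg1.1+ replicate 1 there were 3 higher and 3 lower. The response genes had 2 higher of 18 tested (11.1%, also near that share), of which Egr3 differed by 1.04 ± 0.25, and 5 higher without Vg1.1+ replicate 1. Without any 1 of Vg1.1+ replicates 2 and 4 and Vg2+ replicates 2 and 4 there was 1. Egr2, a factor of the same family, read 6.26, 6.71, 8.10 and 8.00 in Vg1.1+ arrays and 6.06, 6.08, 6.87 and 5.71 in Vg2+ arrays. Its groups overlapped and it did not pass (1.09 ± 0.44, adjusted p = 0.127), but passed without Vg1.1+ replicate 1 (1.42, adjusted p = 0.0341). The inhibitor of E proteins Id3 behaved alike, at 0.68 ± 0.38 (adjusted p = 0.327) with that array and 1.14 (adjusted p = 0.0173) without it. Id2 had a mean of 9.92 in both subsets.

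Of 33 tested T-lineage transcription factors 4 were higher and 4 lower (24.2%, against 11.5% of all tested genes called), with a median difference of 0.01. Bcl11a and Bhlhe40 passed the filter only through the mature subset where they were higher. Of the other 31 members 4 were higher and 3 lower. Myb, a factor of immature and renewing lymphocytes, averaged 7.59 ± 0.22 in Vg1.1+ cells and 6.06 ± 0.57 in Vg2+ cells (1.53 ± 0.20). Bhlhe40, a repressor tied to cytokine production, read 4.32, 4.24, 4.33 and 4.02 in Vg1.1+ arrays and 5.49, 6.62, 6.09 and 6.60 in Vg2+ arrays (-1.97 ± 0.19). Klf6 and Hif1a differed by -1.54 ± 0.25 and 0.55 ± 0.11. Lef1, a partner of beta-catenin, differed by 0.80 ± 0.24 (adjusted p = 0.0353) and by 1.1 without Vg1.1+ replicate 1. Its call ended without any 1 of Vg1.1+ replicates 2, 3 and 4 and Vg2+ replicates 1, 2 and 4 (adjusted p up to 0.126). Tbx21 and Eomes, the factors of type 1 and cytotoxic cells, did not pass (0.08 ± 0.15 and -0.02 ± 0.11, adjusted p = 0.846 and 0.967). The type 1 and cytotoxic list had 1 higher and 2 lower of 19 tested (15.8%, against 11.5% of all tested genes called), with a median of -0.09. Stat4, which relays interleukin 12 and interleukin 23 signals, was lower by 0.98 in size and the pore-forming protein Prf1 by 0.48. Leaving out Vg2+ replicate 1 gave 1 higher and 4 lower.

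Nuclear receptors and circadian factors split by gene. Of 21 tested, Vdr and its partner Rxra were higher and 9 were lower in Vg1.1+ cells (52.4%, against 11.5% of all tested genes called). Vdr passed the filter only through the mature Vg1.1+ arrays and Nfil3 only through the mature Vg2+ arrays. Of the other 19 members 1 was higher and 8 lower. The 9 included the bZIP factors Hlf and Nfil3, the clock repressor Cry1 (-1.01 ± 0.10), the retinoic acid receptor Rarg (-0.76 ± 0.19), the thyroid hormone receptor Thra (-0.62 ± 0.14), and Rora. Hlf read 4.46, 3.79, 3.89 and 3.87 in Vg1.1+ arrays and 6.73, 6.93, 7.38 and 7.35 in Vg2+ arrays. Cry1 read 5.45, 5.94, 5.60 and 5.70 in Vg1.1+ arrays and 6.65, 6.53, 6.73 and 6.80 in Vg2+ arrays. Both sets of values were free of overlap. The call of Rxra (0.45 ± 0.13) ended without any 1 of Vg1.1+ replicates 3 and 4 and Vg2+ replicates 1 and 2 (adjusted p up to 0.118). Among lipid handling genes 3 were higher and 6 lower of 25 tested (36% called). Fabp7 passed the filter only through the mature Vg1.1+ arrays. Apart from Fabp7, the cholesterol exporter Abca1 (1.18 ± 0.15) and fatty acid synthase Fasn (0.58 ± 0.14) were higher, while the acyl-CoA synthetase Acsbg1 (-1.15 ± 0.11), the sterol enzyme Sqle (-0.95 ± 0.15) and the triglyceride enzyme Dgat1 (-0.79 ± 0.14) were lower.

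**Figure D3:**
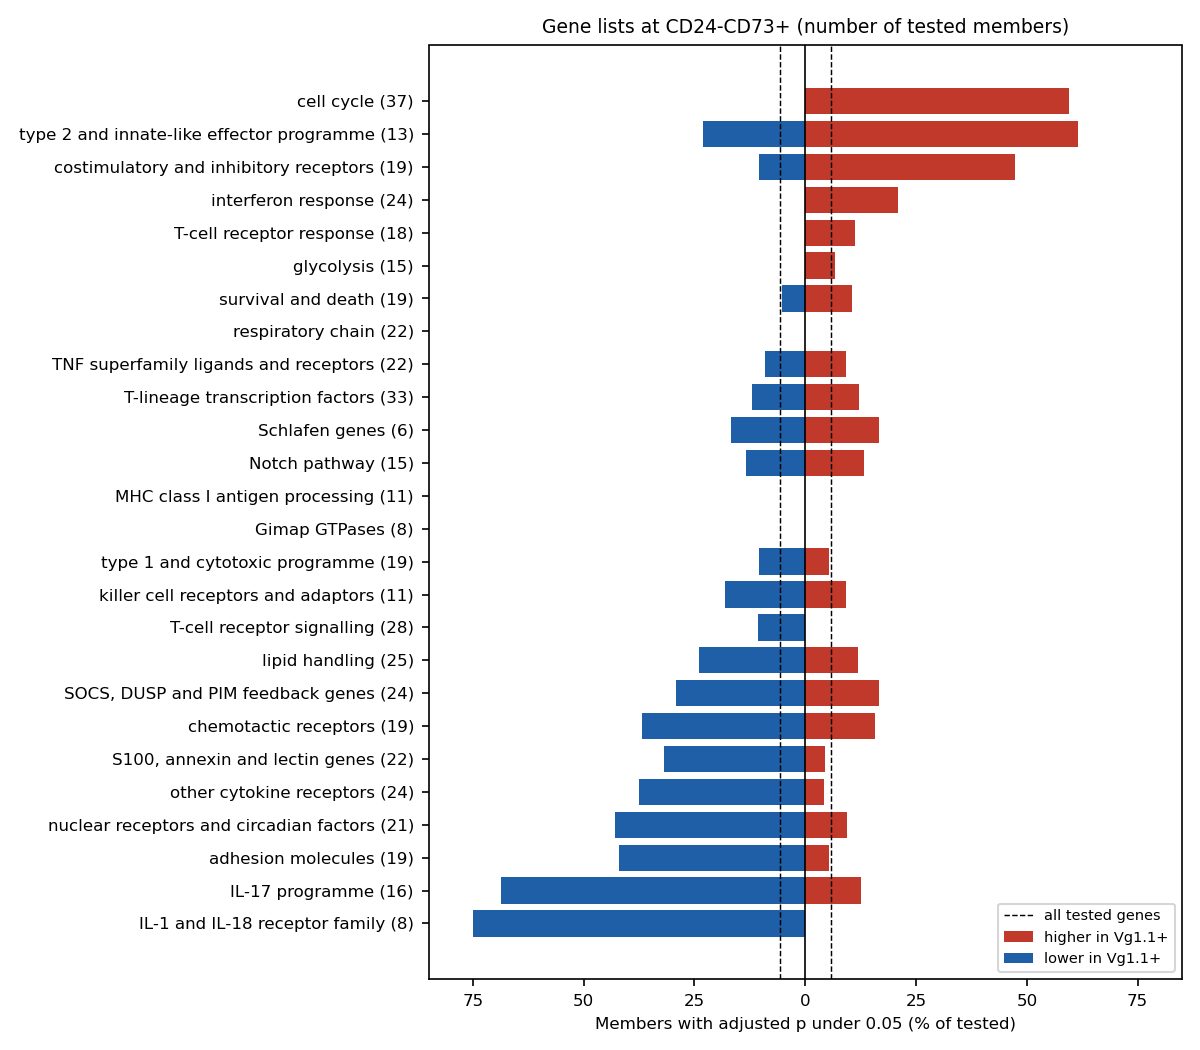
Share of tested members of each gene list past the threshold at CD24-CD73+, as percent of tested members, with higher in Vg1.1+ to the right and lower to the left. Dashed lines mark the share over all tested genes (5.79% higher and 5.72% lower), and the longest bars are the IL-1 and IL-18 receptor family and the IL-17 programme on the left and the type 2 programme and the cell cycle on the right.

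Of 37 tested of 43 listed cell cycle genes, 22 were higher in Vg1.1+ cells and 0 lower, with a median difference of 0.60, and 35 had a positive difference. The share called was 59.5%, against 11.5% of all tested genes. Tpx2, a spindle assembly factor, read 5.62, 5.85, 6.02 and 5.76 in Vg1.1+ arrays and 4.80, 4.47, 5.12 and 4.89 in Vg2+ arrays (0.99 ± 0.14). The kinetochore gene Nuf2, the microtubule-binding protein Nusap1, the kinase Cdk1 and the replication licensing factor Cdc6 differed by 0.96, 0.94, 0.90 and 0.82. Top2a, a topoisomerase of dividing cells, read 7.34, 7.93, 7.87 and 7.91 in Vg1.1+ arrays and 7.36, 6.53, 7.33 and 6.67 in Vg2+ arrays, where replicate 1 of each subset overlapped. The groups did not overlap in 11 of the 37 (29.7%), against 11.4% of all tested genes, and no member exceeded 2-fold. The number called was 14 without any 1 of Vg1.1+ replicates 2, 3 and 4, 11 without Vg2+ replicate 2 and 13 without Vg2+ replicate 4. It was 24 without Vg1.1+ replicate 1, 16 with the replicate number as a block and 9 when only the 8 arrays were fitted.

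Interferon response genes had 5 higher and 0 lower of 24 tested (20.8%, against 11.5% of all tested genes called), but their median difference was 0.06. Oas2, an antiviral RNA-sensing enzyme, read 5.17, 5.57, 5.88 and 5.83 in Vg1.1+ arrays and 4.87, 4.66, 4.63 and 4.57 in Vg2+ arrays (0.93 ± 0.13). Ifit2, Oasl2 and Oasl1 differed by 0.87, 0.61 and 0.51. Genes for S100 proteins, annexins and lectins had 1 higher and 7 lower of 22 tested (36.4%), among them S100a4 (-0.93 ± 0.17) and S100a6 (-0.76 ± 0.14), whose lowest values on the 8 arrays were 10.65 and 11.06. Anxa1, Emp1, S100a8 and S100a9 passed the filter only through the mature subset where they were higher. Of the other 18 members 1 was higher and 6 lower. In the respiratory chain, MHC class I antigen processing and Gimap lists none of 22, 11 and 8 tested genes passed, with median differences of -0.08, -0.10 and 0.15. Set against the 11.5% of all tested genes called, killer cell receptors had 1 higher and 2 lower of 11 tested (27.3%), the Notch pathway 2 and 2 of 15 (26.7%), the TNF superfamily 2 and 2 of 22 (18.2%), survival genes 2 and 1 of 19 (15.8%) and glycolysis 1 and 0 of 15 (6.67%). Jag1, a lower gene of the Notch pathway, passed the filter only through the mature Vg2+ arrays. Slfn1, a Schlafen gene of quiescent T cells, read 7.34, 9.10, 9.26 and 9.25 in Vg1.1+ arrays and 7.09, 7.03, 6.97 and 7.13 in Vg2+ arrays. Vg1.1+ replicate 1 lay close to the Vg2+ values, and the difference was 1.68 ± 0.31 with it and 2.15 without it.

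Several called genes are neighbours on the chromosome. Of 4342 pairs of adjacent tested genes in the RefSeq gene table, 85 (1.96%) had both genes called, with 30 pairs higher, 32 lower and 23 in opposite directions. The second gene was called in 17.7% of the 479 pairs whose first gene was called, against 11.5% of all tested genes, and this difference was not tested. The cytokine genes Il4 and Il13 lie side by side (3.92 and 2.06), and so do Il17a and Il17f (-1.05 and -2.56). Kif3a, the motor protein gene next to Il4, was higher too (0.83 ± 0.19), at 5.58 ± 0.28 in Vg1.1+ cells and 4.76 ± 0.24 in Vg2+ cells. Other such pairs were Tmem176b with Tmem176a (-3.34 and -3.86), Il17re with Il17rc (-2.02 and -1.31), Il18r1 with Il18rap (-0.78 and -0.84), Btla with Cd200 (1.30 each) and Cd5 with Cd6 (0.80 and 1.04). Slfn2 and Slfn1 were adjacent and opposite, at -0.72 and 1.68. Slfn2 lost its call without any 1 of Vg1.1+ replicates 1 and 2 and Vg2+ replicates 2, 3 and 4.

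The contrast between the subsets was of another size at the earlier stages. At CD24+CD73- limma called 175 genes (2.05%), 133 higher (1.56%) and 42 lower (0.492%) in Vg1.1+ cells. At CD24+CD73+ it called 1 gene (0.0117%), Kbtbd4, with 1579 genes at an unadjusted p under 0.05. At that stage Vg2+ replicate 3 had an SD of 1.71. Its highest correlation within its group was 0.974, against 0.984 to 0.987 for the other arrays of that group. Without this array 0 genes were called at CD24+CD73+. The part of array spread in the low count was not tested. The distance between the subsets, taken as 1 minus Pearson r averaged between subsets, less its average within subsets, was 0.0107 at CD24+CD73-, 0.00774 at CD24+CD73+ and 0.0325 at CD24-CD73+. One-sided exact permutation tests gave p = 0.0286, p = 0.200 and p = 0.0286, and 0.0286 is the smallest that 35 splits allow. The average within subsets alone was 0.0176, 0.0417 and 0.0495 at the same stages. Without Vg2+ CD24-CD73+ replicate 4 the distance at the last stage was 0.0253, with an exact p of 0.0571. It was 0.132 over the 1000 most variable genes and 0.0109 without the filter, each with an exact p of 0.0286. The test of the change itself, the difference at CD24-CD73+ minus that at CD24+CD73+, called 432 genes (5.06%), 156 in the positive (1.83%) and 276 in the negative (3.23%) direction. This count was 265 without the first and 276 without the third Vg1.1+ array of CD24+CD73+.

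Of the type 2 list, 0 were higher and 2 lower at CD24+CD73- (15.4% of 13, against 2.05% of all tested genes), none passed at CD24+CD73+, and 8 were higher at CD24-CD73+, with medians of -0.16, -0.18 and 1.88. Of the IL-17 list, 2 were higher and 1 lower at CD24+CD73- (18.8% of 16), then none passed, then 2 were higher and 11 lower, with medians of -0.25, -0.15 and -0.86. Of the type 2 list 5 members and of the IL-17 list 4 passed the filter only through mature arrays. These members were low on most earlier arrays by that choice. Il4 averaged 3.62, 4.67 and 8.48 at the successive stages in Vg1.1+ cells and 3.67, 4.86 and 4.56 in Vg2+ cells. Il17rb differed from it in pattern, at 7.06, 6.53 and 7.72 in Vg1.1+ cells and 7.19, 6.10 and 4.59 in Vg2+ cells, with its lowest value in mature Vg2+ cells. Il1r1 averaged 6.14, 3.96 and 5.0 in Vg1.1+ cells and 6.70, 4.34 and 8.98 in Vg2+ cells. Ccr2 changed order, at 4.85, 4.86 and 7.53 in Vg1.1+ cells and 5.47, 4.20 and 9.28 in Vg2+ cells. Its subset difference was -0.62 (adjusted p = 0.0253) at CD24+CD73-, 0.66 and not past the threshold at CD24+CD73+, and -1.75 at CD24-CD73+.

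**Figure D4:**
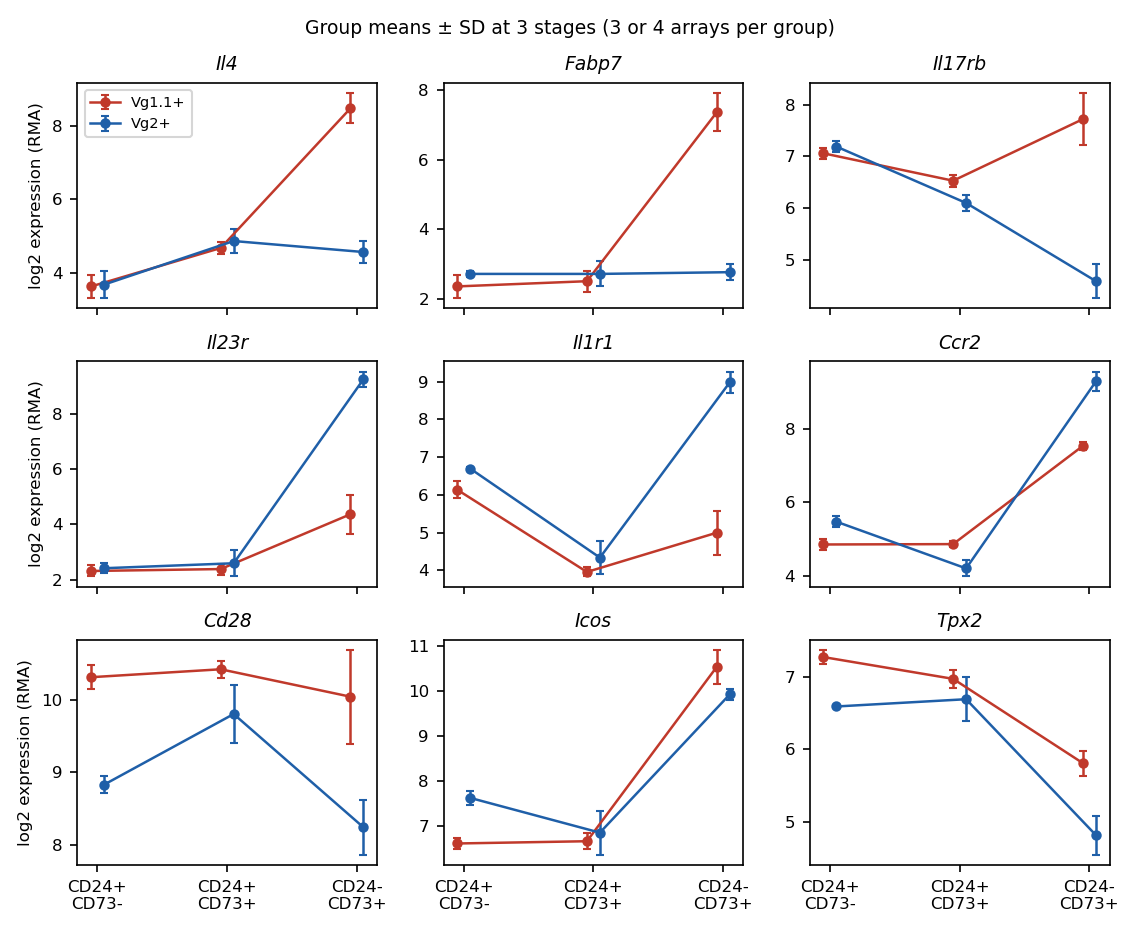
Mean log2 expression ± SD (n = 3 or 4 arrays per group) at the 3 stages for 9 genes, Vg1.1+ in red and Vg2+ in blue. Il4, Fabp7 and Il23r stand together in the first 2 stages and far apart at CD24-CD73+, Cd28 and Tpx2 are also higher in Vg1.1+ cells at CD24+CD73-, and Icos changes order between the first and the last stage.

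Other differences of the mature cells were present at the first stage. Of the 495 genes higher in mature Vg1.1+ cells, 70 were also higher at CD24+CD73-, which is 14.1% of the 495 and 52.6% of the 133 called there. The comparisons use the means of different arrays, but 1 fit gave both the same spread per gene, so the calls are not independent. Without Vg1.1+ CD24-CD73+ replicate 1 the 175 calls at CD24+CD73- became 294. Of all tested genes 5.79% were called higher at CD24-CD73+ and 1.56% at CD24+CD73-, and 5.72% and 0.492% were called lower. The 70 included 8 cell cycle genes (Ccne1, Cdc6, Kif20a, Mcm5, Mcm7, Mki67, Ndc80 and Tpx2), 5 costimulatory or inhibitory receptors (Btla, Cd200, Cd28, Cd5 and Slamf6) and Irf4 of the IL-17 list, and none of the type 2 list. Of the 489 lower genes 13 were also lower at CD24+CD73-, 2.66% of the 489 and 31.0% of the 42, among them Hlf, Ifngr1, Ccr2 and Rora. Cd28 averaged 10.32, 10.43 and 10.05 at the successive stages in Vg1.1+ cells and 8.83, 9.81 and 8.24 in Vg2+ cells. The cell cycle list had 10, 0 and 22 members higher at the successive stages, with medians of 0.61, 0.26 and 0.60.

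A few genes were called in opposite directions at the first and the last stage. Gem, Heg1, Icos, Plekhg3 and Tiam1 were lower at CD24+CD73- and higher at CD24-CD73+ in Vg1.1+ cells, and Atp10a, Blm, Cdc14b and Il7r were higher first and lower last. The first 5 were 11.9% of the 42 lower at CD24+CD73-, against 5.79% of all tested genes called higher at CD24-CD73+. The other 4 were 3.01% of the 133 higher at CD24+CD73-, against 5.72% of all tested genes called lower at CD24-CD73+. These shares were not tested. Icos differed by -1.01 (adjusted p = 0.0119) at CD24+CD73- and 0.61 at CD24-CD73+, and Il7r by 0.95 (adjusted p = 0.0045) and -0.86. The mature call of Icos ended when any CD24-CD73+ array other than Vg1.1+ replicate 1 was left out. Tiam1, an activator of the GTPase Rac, differed by -0.55 (adjusted p = 0.0399) and 0.66, and Gem, a small GTPase, by -0.90 (adjusted p = 0.03) and 0.81. The call of Heg1 at CD24-CD73+ (0.54 ± 0.15) ended without any 1 of Vg1.1+ replicates 2, 3 and 4 and Vg2+ replicate 1 (adjusted p up to 0.0725). Over all tested genes, the sign at CD24-CD73+ matched that at CD24+CD73- in 57.4% and that at CD24+CD73+ in 53.6%.

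**Figure D5:**
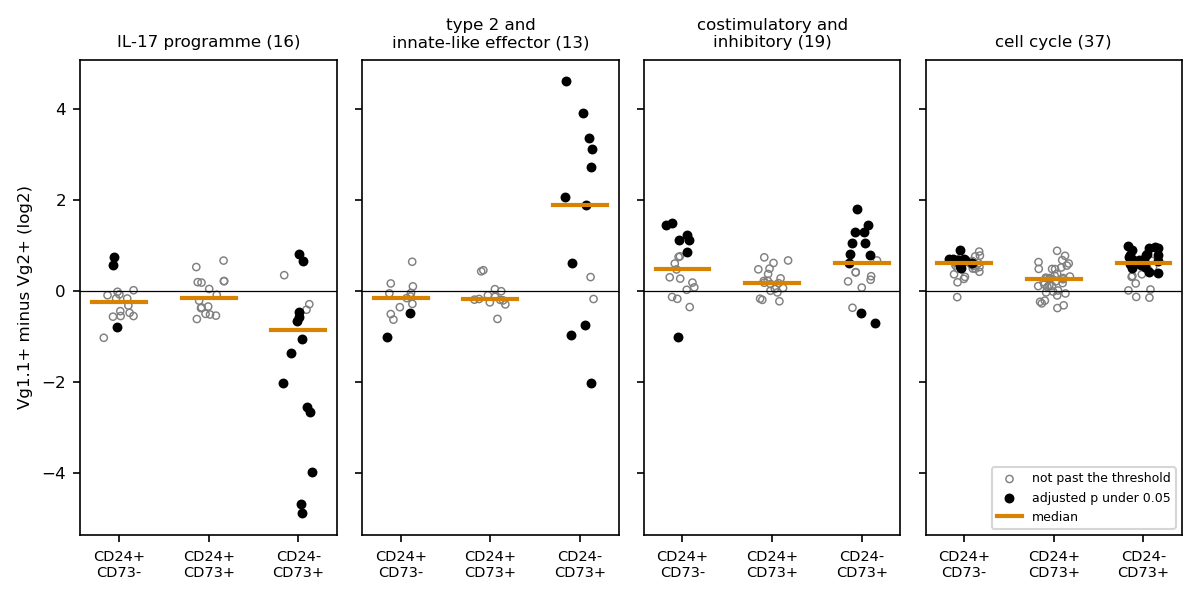
Subset difference (Vg1.1+ minus Vg2+, log2) of each tested member of 4 lists at the 3 stages, with filled points past the adjusted threshold and orange lines at the list median. The members of the IL-17 and type 2 lists lie farthest apart at CD24-CD73+ (medians -0.86 and 1.88), while the cell cycle list is shifted by a like amount at CD24+CD73- (0.61) and CD24-CD73+ (0.60).

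The transcript of 1 sorted protein and markers of other cell types were examined. Nt5e, which encodes CD73, read 7.45, 8.57, 8.57 and 8.74 in Vg1.1+ arrays and 7.41, 6.97, 7.51 and 7.42 in Vg2+ arrays, so it was present in all and higher in Vg1.1+ cells (1.0 ± 0.24, adjusted p = 0.00666). Cd24a and the gamma-chain segments were not analysed here, so the sort on CD24 and on the Vgamma chains was not checked. The T-cell identity list had 1 lower of 9 tested (11.1%, near the 11.5% of all tested genes called). This was Thy1 (-1.06 ± 0.29), whose call ended without Vg1.1+ replicate 1 (adjusted p = 0.0602), Vg2+ replicate 3 or Vg2+ replicate 4. Markers of alpha-beta lineage thymocytes had none called of 5 tested, and Rag2 was near the floor at 1.98 ± 0.28 in Vg1.1+ cells and 2.28 ± 0.58 in Vg2+ cells. Cd79b, a signalling chain of the B-cell receptor, was lower in Vg1.1+ cells, at 6.85 ± 0.61 in Vg1.1+ cells and 8.50 ± 0.30 in Vg2+ cells. The B-cell markers Cd79a, Ms4a1 and Ebf1 did not pass the filter, and Ms4a1 averaged 2.45 ± 0.42 in Vg1.1+ cells and 2.31 ± 0.32 in Vg2+ cells. Summed over the list of 9 measured B-cell markers, log2 values ran from 33.2 to 38.7 in Vg1.1+ arrays and from 36.0 to 37.8 in Vg2+ arrays. Of the 9, 1 had a mean above the table median in Vg1.1+ cells and 2 in Vg2+ cells, so the sum mostly holds low values. Of 4 tested myeloid markers C1qb was lower (-0.64 ± 0.20, 25% called), and of 7 tested markers of epithelium and stroma Pecam1 was higher (0.61 ± 0.13, 14.3% called). The call of C1qb ended without any 1 of Vg1.1+ replicates 1 and 3 and Vg2+ replicates 1 and 2 (adjusted p up to 0.13). No marker of mast cells or erythroid cells was called of 2 and 1 tested. With 11.5% of all tested genes called, such counts cannot set marker lists this short apart from other genes. The part of such markers in the other differences was not tested.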

How the data were processed

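Expression was measured on 22 one-colour arrays, 1 per sorted sample, in 6 groups (2 subsets at 3 stages). The values are the authors' deposited log2 expression values; per the submitters' processing notes they were made with RMA in oligo, whose version, and the genome build, are not given in the sources used here. They were used as deposited. Array medians ran from 4.43 to 4.76, and precision is set by the few arrays per group. Of 16755 probe sets, 14996 had 1 gene symbol, 1019 several and 740 none in the platform annotation, and 14941 symbols were matched in RefSeq. Genes were kept above the table median (4.55) on at least 3 arrays, with the probe set of highest mean per gene, which left 8545 genes. One limma (version 3.58.1, R 4.3.3) fit of 6 group means over all 22 arrays gave the differences, with Benjamini-Hochberg adjustment over the 8545 genes and a threshold of 0.05. The code was tested on simulated data.

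The genes named are the 25 with the largest called difference in each direction, up to 6 called members per list and direction, a set of regulators, and neighbouring called genes, of which the text gives a selection. Icos, Il17a, Cd163l1, Batf, Il7r, Il17ra, Mki67, Top2a, Kif3a, Gem, Heg1, Tiam1, Cd5, Sh2d1a and Atp10a, single markers and untested list members, and genes named in shared or reversed sets, were named after their values were seen. The comparison and the gene lists were chosen with earlier results of these data known. Alternatives covered the filter, the scaling, array weights, the replicate number as a block, a minimum fold, the arrays fitted and each array left out.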

Additional observations from a re-analysis of the deposited data

Results flagged for a closer look

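The subset difference itself changed between CD24+CD73+ and CD24-CD73+ for 432 genes by limma's interaction contrast (the difference at CD24-CD73+ minus that at CD24+CD73+). Among the 10 leading genes higher in Vg1.1+ cells this change was 4.82 for Fabp7, 4.12 for Il4, 3.66 for Cd40lg, 2.83 for Vdr, 2.70 for Il17rb, 2.64 for Flrt2, 2.46 for Trpm6, 1.93 for H19, 1.73 for Izumo1r and 1.62 for Zfp536. Among the 10 leading lower genes it was -4.68 for Il23r, -4.18 for Ccr6, -3.98 for Abi3bp, -3.60 for Il1r1, -3.53 for Tmem176a, -3.40 for Tmem176b, -3.35 for Pxdc1, -3.19 for Cysltr1, -2.92 for Hlf and -2.55 for Plekhf1. All 20 passed the adjusted threshold of that contrast. They were picked for their difference at CD24-CD73+, which is a term of that contrast, so this was partly fixed in advance. Fabp7, Vdr, Il23r, Ccr6 and Cysltr1 also passed the filter only through the mature subset where they were higher.

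In some groups of 4 arrays 1 array lay far from the other 3, by the gap to its nearest neighbour as a share of the group's range against Dixon's 95% critical value. Of 284 sets of 4 values examined, over the genes named and the array SDs, 34 (12%) had such an array, and chance flags about 1 in 20. On Vg1.1+ CD24-CD73+ replicate 1 the share was 0.858 for Abca1, 0.882 for Ccne1, 0.839 for Ccr10, 0.912 for Ccr6, 0.941 for Cd5, 0.913 for Cd79b, 0.842 for Cxcr6 and 0.870 for Dgat1. On the same array the share also was 0.883 for Heg1, 0.843 for Hlf, 0.897 for Id3, 0.928 for Il17rb, 0.928 for Il17rc, 0.865 for Il18rap, 0.83 for Kif3a and 0.945 for Klf6. On the same array the share also was 0.947 for Myb, 0.872 for Nt5e, 0.916 for Slfn1, 0.851 for Socs2, 0.845 for Stat4 and 0.891 for Top2a. On Vg1.1+ CD24-CD73+ replicate 2 the share was 0.886 for Btla, 0.883 for Gem and 0.956 for Zdhhc2. On Vg1.1+ CD24-CD73+ replicate 4 the share was 0.939 for Ifit2 and 0.833 for Tmem176b. On Vg2+ CD24-CD73+ replicate 1 the share was 0.863 for Anxa1, 0.925 for Cd44 and 0.848 for Il18r1. On Vg2+ CD24-CD73+ replicate 2 the share was 0.877 for Il17a, 0.880 for Sqle and 0.934 for Zbtb7b. On Vg2+ CD24-CD73+ replicate 3 the share was 0.907 for Etv5.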

How the results depend on the processing

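The 984 genes called at CD24-CD73+ became 1791 with array weights, 1554 with the array SD as a covariate, 63 with a minimum fold of 2 and 466 (213 higher, 253 lower) when only the 8 arrays were fitted, and ran from 765 to 1186 with single arrays left out. The 1 gene called at CD24+CD73+ became 436 with array weights, 5 with cyclic loess and 0 without the filter, with arrays scaled to one SD, with the SD covariate or with the minimum fold. Its range was 0 to 97, the highest without Vg2+ CD24+CD73+ replicate 2. The 175 genes called at CD24+CD73- became 1203 with array weights, 349 with the SD covariate, 115 without the filter and 1 with the minimum fold. They ran from 63 (without Vg2+ replicate 3 of that stage) to 294 (without Vg1.1+ CD24-CD73+ replicate 1), and were 95, 81 and 102 without Vg1.1+ replicates 2, 3 and 4 and 81 and 79 without Vg2+ replicates 1 and 2 of that stage. The 432 changes between stages became 1048 with array weights and 27 with the minimum fold, and ran from 265 to 578. The distance at CD24-CD73+ (0.0325) ran from 0.0253 to 0.0383 with single arrays left out, and was 0.132 over the 1000 most variable genes, 0.0109 without the filter and 0.0348 with Spearman's rho. The causes were not tested.

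With the replicate number as a block the counts were 738 (360 higher, 378 lower) at CD24-CD73+, 0 at CD24+CD73+, 65 at CD24+CD73- and 250 for the change. At CD24+CD73+ the count was also 0 with the block and without the array of narrowest spread, a setting chosen after seeing the data. Same-numbered arrays of the mature subsets had correlations of 0.18, -0.12, 0.56 and -0.15 of their deviations from the group means. Those of differently numbered arrays ran from -0.57 to 0.37. The numbers were not taken as pairs, but these few values cannot settle whether they are. Over the named genes and all alternatives, 5974 of 6496 values kept their side of the threshold, 505 lost the call, 17 gained one and none changed sign as a called value. Values called in neither setting were counted as kept even where their sign changed. This tally is lenient. Leaving out an array of another stage cannot change the difference itself, and most named genes were picked for their call. Of 182 named genes 58 lost the call when only the 8 arrays were fitted, and 126 with a minimum fold of 2.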
